A study of Mus musculus with 6 samples.

Results

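The 32 genes described here encode enzymes of glycolysis and of the pentose phosphate pathway, together with the enzymes that set fructose-2,6-bisphosphate and bisphosphoglycerate and those that bring glucose 1-phosphate, galactose or ADP-dependent glucose phosphorylation into the same sugar phosphates. They were taken by name, through their NCBI gene numbers, from 17759 gene identifiers listed in 6 RNA-seq tables. All 32 were found and all 32 passed the filter on low counts that left 12848 genes for testing. The glycolytic trunk from glucose 6-phosphate to pyruvate has 14 of them, 6 act on fructose-2,6-bisphosphate or bisphosphoglycerate, 4 are entry enzymes, and 8 belong to the pentose phosphate pathway, 4 in its oxidative and 4 in its non-oxidative arm.

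Regulatory T cells (Treg cells) are CD4+ T cells that carry the transcription factor Foxp3 and restrain other immune cells. The labels give 6 groups from 8-week-old C57BL/6 mice with 1 library each, so no group had a replicate. Natural Treg (nTreg) cells were sorted as CD4+CD25hiYFP+ cells from spleen and lymph nodes of MondoA+/+Foxp3Cre mice (wild type below) or MondoAfl/flFoxp3Cre mice (knockout below). They were sequenced at rest or after 48 h on plate-bound anti-CD3 (5 µg/ml) with anti-CD28 (2 µg/ml) and IL-2 (100 U/ml). Induced Treg (iTreg) cells were made from naive CD4+YFP- T cells of the same genotypes during 4 days of iTreg polarization, so they differ from the stimulated nTreg cells in origin, culture and time at once. Foxp3Cre, a recombinase driven by Foxp3, is carried by the mice of both genotypes. It acts in cells that express Foxp3, and in iTreg cultures begun from YFP- cells it can act only once Foxp3 is on. MondoA, encoded by Mlxip, is a glucose-sensing transcription factor that binds DNA with Mlx and whose best known target is Txnip, an inhibitor of glucose uptake. Which exons are floxed, how many mice were pooled and whether the iTreg cells were sorted again before lysis are not given in the sources used here.

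Glycolysis splits glucose into pyruvate and yields ATP. Its preparatory steps spend ATP, with phosphofructokinase as the main control point, and its later steps, from glyceraldehyde-3-phosphate dehydrogenase to pyruvate kinase, return ATP and reduced NADH. The pentose phosphate pathway branches off at glucose 6-phosphate. Its oxidative arm makes NADPH, and its non-oxidative arm exchanges carbons between ribose 5-phosphate, used for nucleotides, and the sugar phosphates of glycolysis. T cells stimulated through their antigen receptor are known to raise glycolytic enzymes through Myc and Hif1a, and both factors bind E-box or hypoxia response element sequences that share the core letters ACGTG.

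The promoters of the 4 members with the largest increase after stimulation are shown because ACGTG is the core through which those factors and the MondoA-Mlx pair are known to bind. The sequences are from RefSeq on build GRCm38.p6, from 250 bases before to 50 bases after an annotated start, written 5′ to 3′ on the gene's strand, with every ACGTG or its reverse complement CACGT in capitals. The windows are chr6:124814109-124814408 on the minus strand for Tpi1, chr19:41911621-41911920 on the plus strand for Pgam1, chr11:116012670-116012969 on the minus strand for Galk1 and chrX:106186850-106187149 on the plus strand for Pgk1.
Tpi1: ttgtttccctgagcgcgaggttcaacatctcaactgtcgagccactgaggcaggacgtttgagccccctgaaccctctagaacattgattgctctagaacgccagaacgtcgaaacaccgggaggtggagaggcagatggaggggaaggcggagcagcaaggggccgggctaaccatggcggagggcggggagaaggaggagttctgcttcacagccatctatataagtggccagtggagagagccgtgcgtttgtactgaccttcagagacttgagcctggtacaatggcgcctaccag
Pgam1: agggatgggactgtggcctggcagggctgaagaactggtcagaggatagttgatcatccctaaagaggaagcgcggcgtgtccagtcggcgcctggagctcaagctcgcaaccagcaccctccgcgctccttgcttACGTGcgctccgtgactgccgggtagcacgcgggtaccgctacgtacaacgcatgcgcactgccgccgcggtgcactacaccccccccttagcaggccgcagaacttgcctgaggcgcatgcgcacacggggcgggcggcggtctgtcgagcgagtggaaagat
Galk1: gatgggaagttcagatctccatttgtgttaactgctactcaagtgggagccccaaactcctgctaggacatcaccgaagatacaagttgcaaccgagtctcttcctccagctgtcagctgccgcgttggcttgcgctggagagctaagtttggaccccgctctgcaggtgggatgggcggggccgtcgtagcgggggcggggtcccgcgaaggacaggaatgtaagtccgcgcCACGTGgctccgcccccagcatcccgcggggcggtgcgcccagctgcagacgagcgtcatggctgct
Pgk1: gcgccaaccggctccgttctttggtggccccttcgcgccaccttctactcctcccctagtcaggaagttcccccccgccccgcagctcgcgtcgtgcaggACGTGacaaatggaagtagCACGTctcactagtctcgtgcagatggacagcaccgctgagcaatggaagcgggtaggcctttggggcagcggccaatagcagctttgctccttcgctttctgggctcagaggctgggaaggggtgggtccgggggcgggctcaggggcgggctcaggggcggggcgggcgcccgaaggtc

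Tpi1, whose increase was the largest of the 4, held no ACGTG in this window. Pgam1 held 1 match, Pgk1 held 2, and in Galk1 both strands matched within a single CACGTG. Over all members, with both strands searched, 18 of 45 promoter windows (40%) held ACGTG, against 19.6% of 32851 windows of all annotated genes and 20.9% of 21263 windows of protein-coding genes. Counted by gene, 7 of the 16 members that rose after stimulation and 7 of the other 16 held it, so the letters did not separate the members that rose. The full palindrome CACGTG, which contains ACGTG on both strands, was in 4 of 45 member windows (8.89%), those of Pfkm, Pfkfb2, Pfkfb3 and Galk1, against 7.15% of all windows. The carbohydrate response element, taken as 2 exact copies of CACGTG spaced by 5 bases, was in 0 of 45 member windows and in 0 of all 32851. This pattern allowed no mismatch and matched no window of any gene, so it cannot show whether members lack such an element. These are letter matches in short windows and not measurements of binding.

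The tables held between 9760285 and 10185664 expected counts per library. In these bulk libraries, fewer cells of a type and less RNA per cell cannot be told apart. The 7 Treg markers were detected in every library, with a summed level of 4543 to 6105 CPM (counts scaled to library size), although Ikzf2, which encodes Helios, stood at 357 to 557 CPM in the nTreg libraries and at 34.1 and 13.3 CPM in wild-type and knockout iTreg cells. Mlxip stood at 143 (wild type) and 108 (knockout) CPM at rest, 152 and 86.7 in stimulated cells and 167 and 70.7 in iTreg cells. Txnip was likewise lower in knockout in every pair, at 407 against 1505 CPM, 24.2 against 141 and 72.8 against 303. These differences have no replicate check, and total Mlxip RNA is a partial check only, since RNA without the floxed exons may still be counted. The summed level of 6 proliferation markers was 267 to 287 CPM at rest, 3720 and 3899 in wild-type and knockout stimulated cells, and 4776 and 3390 in iTreg cells. In the iTreg pair Mki67 (2147 and 1158 CPM) and Top2a (1683 and 1174 CPM) were lower in knockout. Cdk1, Ccnb1, Mcm2 and Pcna were higher. None of these marker levels was adjusted for the transcript-length trend of the iTreg pair described below. The part of that trend in this split was not tested.

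Read per transcript length as FPKM, the trunk enzymes far exceeded the rest. Summed FPKM of the 14 trunk enzymes was 2298 in wild-type and 2385 in knockout resting cells, 5981 and 6997 in stimulated cells, and 3504 and 5788 in iTreg cells. That is 0.469% and 0.488% of all FPKM at rest, 1.27% and 1.48% after stimulation, and 0.754% and 1.07% in iTreg cells. The summed FPKM was 2.60-fold higher after stimulation in wild-type and 2.93-fold higher in knockout cells. Gapdh, the dehydrogenase of the trunk, led with 858 FPKM (wild type) and 917 (knockout) at rest, 2286 and 2874 after stimulation, and 1480.0 and 2458 in iTreg cells. It ranked 92nd and 86th among all genes at rest and 13th and 3rd after stimulation. The 8 pentose phosphate enzymes summed to 337.6 and 366.5 FPKM at rest, 420.2 and 463.5 after stimulation and 368.7 and 501.3 in iTreg cells, a much smaller spread between states than that of the trunk.

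**Figure D1:**
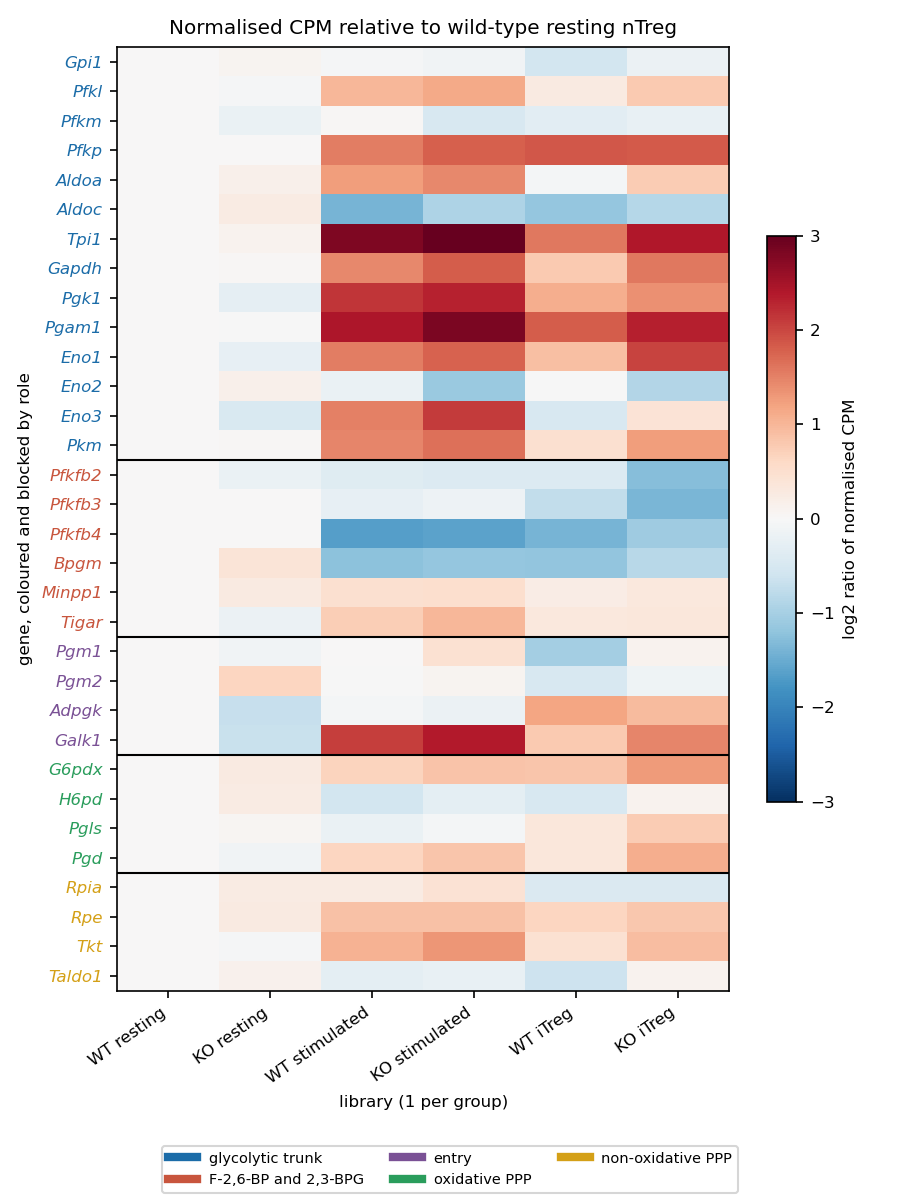
Heat map of the log2 normalised CPM of each of the 32 members (rows, grouped by role) in the 6 libraries (columns), relative to the wild-type resting library. Tpi1, Pgam1, Pgk1 and Galk1 stand far above their resting level in both stimulated libraries, and Bpgm, Pfkfb4 and Aldoc below it.

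After stimulation of nTreg cells, most trunk enzymes rose, with Tpi1, Pgam1 and Pgk1 ahead of the others. Of the 32 members, 16 rose and 4 fell at an adjusted p under 0.05 in edgeR's quasi-likelihood test with Benjamini-Hochberg adjustment, in a fit of cell state and genotype to all 6 libraries. Of all 12848 genes, 24.1% rose and 22.3% fell, 46.4% in all, so a change after stimulation was common. The median log2 fold over the members was 0.49, against -0.0047 over all genes tested, and 10 of the 14 trunk enzymes rose while 1 fell. In this fit the wild-type and the knockout library of a state stand in for replicates, and p-values measure only the spread between such libraries.

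Triose phosphate isomerase, which interconverts the 2 trioses that aldolase releases, gave the largest rise. Here and in the paragraphs on stimulation, the fold after the levels is that of stimulated over resting cells on the log2 scale. Tpi1 was at 57.1 CPM (wild type) and 61.2 (knockout) at rest, 395 and 478 after stimulation, and 172 and 303 in iTreg cells (log2 fold 2.87, standard error 0.233, edgeR adjusted p = 2.03e-05). Phosphoglycerate mutase 1 acts further down, and Pgam1 was at 71.0 CPM (wild type) and 69.9 (knockout) at rest, 380.0 and 505 after stimulation, and 251 and 359 in iTreg cells (log2 fold 2.63, standard error 0.216, edgeR adjusted p = 2.19e-05). Pgk1, the first ATP-yielding kinase of the trunk, was at 161 CPM (wild type) and 133 (knockout) at rest, 709 and 800.2 after stimulation, and 341 and 415 in iTreg cells (log2 fold 2.35, standard error 0.221, edgeR adjusted p = 4.99e-05). All 3 genes had both stimulated libraries above both resting and both iTreg libraries.

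The abundant enzymes of the lower trunk rose too. Gapdh was at 1192 CPM (wild type) and 1215 (knockout) at rest, 3246 and 4205 after stimulation, and 2070.1 and 3580.1 in iTreg cells (log2 fold 1.61, standard error 0.254, edgeR adjusted p = 0.000902). Enolase 1, which makes phosphoenolpyruvate, was at 544 CPM (wild type) and 455 (knockout) at rest, 1582 and 1841 after stimulation, and 1020.2 and 2221 in iTreg cells (log2 fold 1.75, standard error 0.314, edgeR adjusted p = 0.00182). Its 2 stimulated libraries lay above both resting ones, but the highest of all 6 was knockout iTreg. Pkm, the pyruvate kinase gene whose M2 splice form predominates in dividing cells, was at 781 CPM (wild type) and 804 (knockout) at rest, 2172 and 2463 after stimulation, and 1090.4 and 1864 in iTreg cells (log2 fold 1.54, standard error 0.246, edgeR adjusted p = 0.00097). The tables are per gene, so the M1 and M2 forms of Pkm were not resolved.

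In the upper trunk the response was uneven. Gpi1, which turns glucose 6-phosphate into fructose 6-phosphate, was at 743 CPM (wild type) and 783 (knockout) at rest, 727 and 692 after stimulation, and 506 and 655 in iTreg cells. Its value after stimulation did not pass the test (log2 fold -0.10, standard error 0.207, edgeR adjusted p = 0.712), and it was among the most abundant members at rest. Aldoa, the main aldolase, was at 467 CPM (wild type) and 517 (knockout) at rest, 1118 and 1261 after stimulation, and 449.9 and 793 in iTreg cells (log2 fold 1.27, standard error 0.234, edgeR adjusted p = 0.00208). Stimulated libraries of Aldoa lay above the other 4, while the 6 Gpi1 values ranged only from 505.6 to 783 CPM.

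The phosphofructokinase genes parted from each other. Pfkp, the platelet form, was at 77.4 CPM (wild type) and 77.5 (knockout) at rest, 224 and 267 after stimulation, and 279 and 275 in iTreg cells (log2 fold 1.66, standard error 0.19, edgeR adjusted p = 0.00015). Pfkl, the liver form, was at 61.5 CPM (wild type) and 60.4 (knockout) at rest, 122 and 136 after stimulation, and 73.8 and 105 in iTreg cells (log2 fold 1.07, standard error 0.196, edgeR adjusted p = 0.00197). Pfkm, the muscle form, was at 19.3 CPM (wild type) and 16.7 (knockout) at rest, 19.9 and 13.7 after stimulation, and 15.4 and 16.4 in iTreg cells, and it did not pass the test (log2 fold -0.11, standard error 0.236, edgeR adjusted p = 0.726). As a share of the FPKM of the 3 genes, Pfkp made up 45.3% and 46.6% at rest, 58.5% and 61.6% after stimulation and 73.4% and 66.8% in iTreg cells, with wild type first. Pfkm went from 15.8% and 14.1% at rest to 7.26% and 4.46% after stimulation. The shift of share came with the increases of Pfkp and Pfkl and not with a called decrease of Pfkm.

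Among the minor aldolase and enolase forms, 1 fell and 1 rose. Aldoc, a brain-enriched aldolase, was at 12.1 CPM (wild type) and 14.3 (knockout) at rest, 4.62 and 6.41 after stimulation, and 5.41 and 6.66 in iTreg cells, and it was the only trunk gene that fell (log2 fold -1.27, standard error 0.271, edgeR adjusted p = 0.0045). Eno3, the muscle enolase, was at 21.8 CPM (wild type) and 15.97 (knockout) at rest, 61.9 and 92.9 after stimulation, and 15.5 and 28.8 in iTreg cells, and it rose (log2 fold 1.98, standard error 0.298, edgeR adjusted p = 0.000691). Without the wild-type resting library the Eno3 fold was 2.62 on the log2 scale and stayed past the threshold. Eno2, the neuronal enolase, did not pass the test (log2 fold -0.73, standard error 0.353, edgeR adjusted p = 0.118). Eno1 made up 94.1% to 98.3% of enolase FPKM in all 6 libraries, and Aldoa made up 98.5% to 99.8% of aldolase FPKM.

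**Figure D2:**
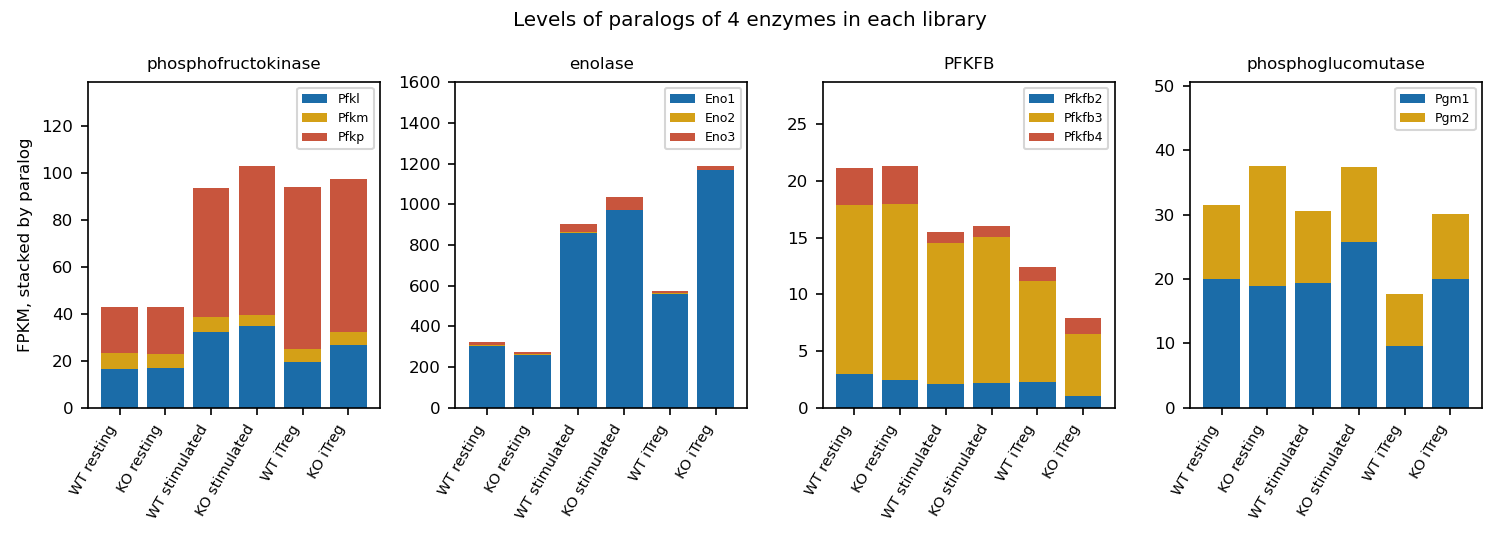
Stacked bars of the FPKM of genes of the phosphofructokinase, enolase, PFKFB and phosphoglucomutase families in each of the 6 libraries, from 0. Pfkp and Pfkl supply the larger phosphofructokinase totals of the stimulated libraries, and Eno1 makes up nearly all enolase.

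Among the enzymes that set regulators of the trunk, called changes ran both ways. Fructose-2,6-bisphosphate activates phosphofructokinase and is made and removed by the PFKFB enzymes, and TIGAR removes it. Pfkfb3, the most abundant of the 3 PFKFB genes with 68.4% to 80.2% of their FPKM, was at 70.6 CPM (wild type) and 71.3 (knockout) at rest, 59.5 and 64.0 after stimulation, and 42.2 and 27.1 in iTreg cells, and it did not pass the test after stimulation (log2 fold -0.20, standard error 0.218, edgeR adjusted p = 0.483). Pfkfb4 was at 10.8 CPM (wild type) and 10.8 (knockout) at rest, 3.41 and 3.56 after stimulation, and 4.08 and 5.13 in iTreg cells, and it fell (log2 fold -1.63, standard error 0.303, edgeR adjusted p = 0.00219), whereas Tigar was at 16.2 CPM (wild type) and 14.3 (knockout) at rest, 27.1 and 32.04 after stimulation, and 20.2 and 20.6 in iTreg cells, and it rose (log2 fold 0.96, standard error 0.215, edgeR adjusted p = 0.00583). Tigar was past the threshold in neither the fit without the knockout resting library (0.79, edgeR adjusted p = 0.0946) nor that without the knockout stimulated library (0.80, edgeR adjusted p = 0.0818).

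Bpgm makes 2,3-bisphosphoglycerate, the ligand that lowers the oxygen affinity of haemoglobin in red cells. It was at 29.2 CPM (wild type) and 38.1 (knockout) at rest, 12.4 and 13.0 after stimulation, and 12.8 and 16.3 in iTreg cells, and it fell after stimulation (log2 fold -1.39, standard error 0.216, edgeR adjusted p = 0.000823). The summed level of 9 erythroid markers was 99.0 CPM (wild type) and 14.4 (knockout) at rest, 5.82 and 4.27 in stimulated cells and 0.715 and 1.64 in iTreg cells. Both Bpgm and the erythroid sum were highest at rest, but Bpgm was higher in the knockout resting library, where the erythroid sum was lower. The part of red-cell RNA in the Bpgm values was not tested. Minpp1, which also degrades bisphosphoglycerate, and Pfkfb2 did not pass the test.

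The entry enzymes gave 1 large response. Galk1, galactokinase, was at 19.9 CPM (wild type) and 12.4 (knockout) at rest, 83.9 and 103 after stimulation, and 34.3 and 54.7 in iTreg cells (log2 fold 2.52, standard error 0.301, edgeR adjusted p = 0.000193), with both stimulated libraries above the other 4. Without the wild-type resting library the Galk1 fold was 3.15 on the log2 scale. Adpgk, a glucokinase that uses ADP, did not pass the test after stimulation. Neither did Pgm1, which interconverts glucose 1-phosphate and glucose 6-phosphate, nor its paralog Pgm2. The symbols Pgm1 and Pgm2 are the current ones, and older mouse literature uses them the other way round.

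The called log2 folds of the pentose phosphate genes lay between -0.55 and 1.20. Transketolase of the non-oxidative arm showed the clearest rise, with Tkt at 231 CPM (wild type) and 225 (knockout) at rest, 480.0 and 575 after stimulation, and 319 and 437 in iTreg cells (log2 fold 1.20, standard error 0.205, edgeR adjusted p = 0.00138). Rpe, the epimerase beside it, was at 23.7 CPM (wild type) and 28.5 (knockout) at rest, 43.4 and 43.2 after stimulation, and 37.2 and 41.7 in iTreg cells, and it also rose (log2 fold 0.74, standard error 0.19, edgeR adjusted p = 0.0114). Taldo1 and Rpia did not pass the test, at a log2 fold of -0.32 ± 0.208, adjusted p = 0.238 for Taldo1 and 0.23 ± 0.183, adjusted p = 0.332 for Rpia. In the oxidative arm, G6pdx, its first and rate-limiting dehydrogenase, was at 54.4 CPM (wild type) and 65.7 (knockout) at rest, 86.2 and 97.7 after stimulation, and 97.5 and 132 in iTreg cells, and it rose (log2 fold 0.62, standard error 0.179, edgeR adjusted p = 0.0187). Pgd, which makes the next NADPH, was at 81.9 CPM (wild type) and 75.7 (knockout) at rest, 129 and 146 after stimulation, and 104 and 173 in iTreg cells, and it rose (log2 fold 0.79, standard error 0.224, edgeR adjusted p = 0.0173). H6pd, the form of the endoplasmic reticulum, was at 47.7 CPM (wild type) and 56.6 (knockout) at rest, 32.7 and 38.6 after stimulation, and 34.1 and 51.3 in iTreg cells, and it fell (log2 fold -0.55, standard error 0.192, edgeR adjusted p = 0.0414), and G6pdx went from 67.4% and 67.6% of their joint FPKM at rest to 82.7% and 82.1% after stimulation. Pgls, the lactonase between the dehydrogenases, did not pass the test.

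Several pentose phosphate calls were lost when 1 library was left out. Such fits, here and for iTreg cells below, have fewer residual degrees of freedom, so a call can be lost with little change in fold. Over these fits the log2 fold ranged from 0.54 to 0.71 for G6pdx and from -0.63 to -0.45 for H6pd. It ranged from 0.63 to 0.85 for Rpe and more widely, from 0.52 to 1.10, for Pgd. G6pdx was lost whenever a resting or stimulated library was left out (edgeR adjusted p = 0.0941 to 0.21), and so was H6pd (edgeR adjusted p = 0.15 to 0.341), which also missed the threshold in DESeq2 at 0.0775 and with no filter on low counts at 0.0548. Pgd was lost without the knockout resting library (log2 fold 0.52, edgeR adjusted p = 0.234) and without the wild-type stimulated library (edgeR adjusted p = 0.0859). Rpe was lost without either resting library (edgeR adjusted p = 0.147 without wild type, 0.0645 without knockout) or the wild-type stimulated one (edgeR adjusted p = 0.136). The other 15 calls after stimulation held in all 12 alternatives run.

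**Figure D3:**
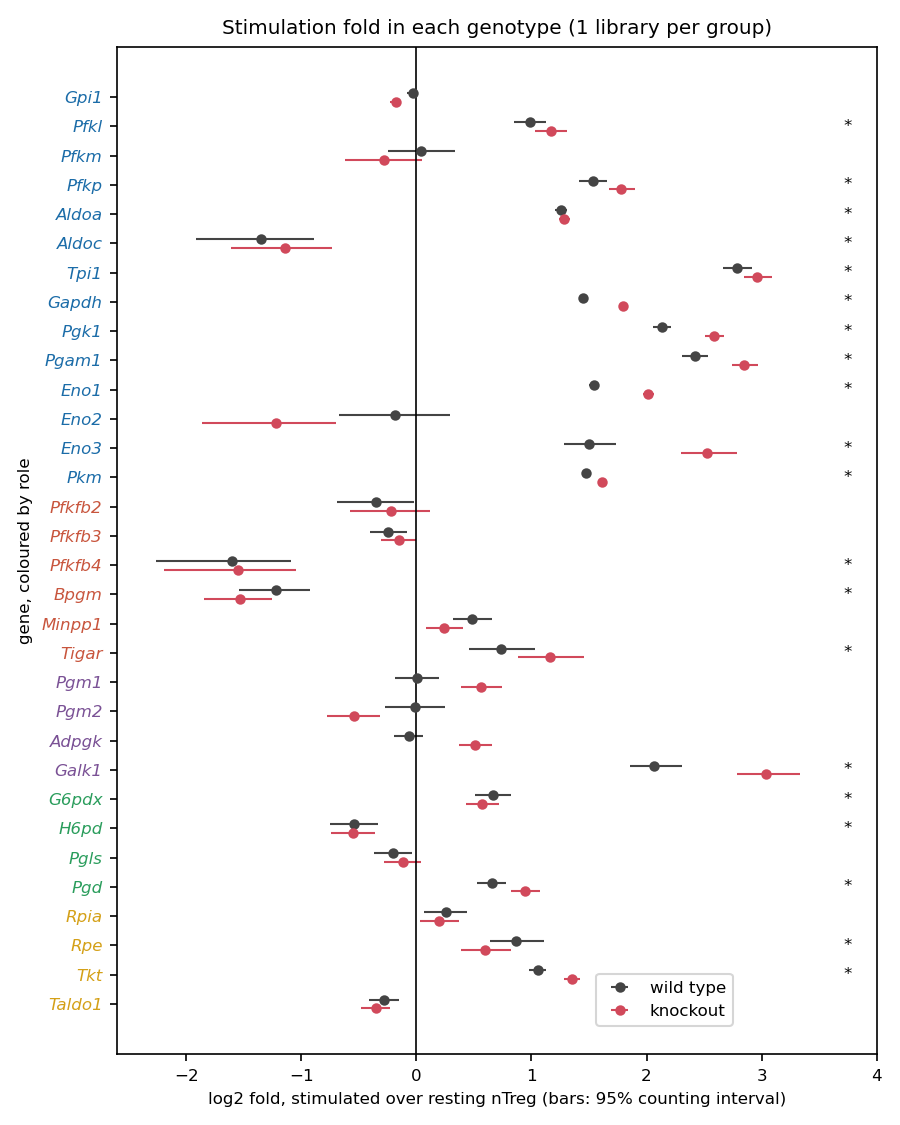
Log2 fold of stimulated over resting nTreg cells for each member, drawn for the wild-type and the knockout pair with 95% counting intervals, with an asterisk on members past the threshold in the joint fit. Tpi1, Pgam1, Galk1 and Pgk1 lie at the high end and Pfkfb4, Bpgm and Aldoc at the low end in both genotypes.

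Genes of the same pathway that are not among the 32 were read from a list of 51, of which 47 were listed and 41 tested. After stimulation 10 rose and 9 fell, a share close to that of all genes. Those that rose most were Hk2, the inducible hexokinase (3.56 ± 0.328, adjusted p = 4.44e-05), the lactate transporters Slc16a1 (2.79 ± 0.227, adjusted p = 2.07e-05) and Slc16a3 (2.11 ± 0.23, adjusted p = 0.000114), and the lactate dehydrogenase gene Ldha (1.76 ± 0.221, adjusted p = 0.000252), all as edgeR log2 folds ± standard error. Those that fell most were Tktl1 (-5.76 ± 0.959, adjusted p = 0.00167), the glycogen phosphorylase gene Pygl (-4.45 ± 0.641, adjusted p = 0.000546), Hk3 (-4.06 ± 0.702, adjusted p = 0.00148) and the kinase gene Pdk2 (-2.58 ± 0.315, adjusted p = 0.000217), in the same edgeR fit. Hk3 and Pygl are known as genes of myeloid cells, and the summed level of 6 myeloid markers was 125 to 153 CPM in the resting libraries and 3.86 to 7.73 in the stimulated ones. Their part in these decreases was not tested.

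Between stimulated nTreg and iTreg cells fewer members differed. In iTreg cells 2 members were higher and 7 lower, against 6.81% and 7.62% of all 12848 genes (14.4% in all), with a median of -0.32 over the members and -0.049 over all genes on the log2 scale. Adpgk was the clearest of the higher ones (log2 fold 1.19, standard error 0.202, edgeR adjusted p = 0.00478). It was at 106 CPM (wild type) and 65.0 (knockout) at rest, 101 and 92.9 after stimulation, and 241 and 203 in iTreg cells, so both iTreg libraries lay above the other 4. Pgls was at 63.7 CPM (wild type) and 66.2 (knockout) at rest, 55.3 and 60.9 after stimulation, and 80.0 and 107 in iTreg cells, and it was also higher (log2 fold 0.68, standard error 0.185, edgeR adjusted p = 0.0388). The 7 lower members were Eno3 (log2 fold -1.82, standard error 0.294, edgeR adjusted p = 0.00369), Galk1 (-1.08), Pgk1 (-0.998), Aldoa (-0.98), Tpi1 (-0.92), Pfkfb3 (-0.85) and Rpia (-0.78).

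Only Eno3 and Adpgk kept their call in all 12 alternatives, and 4 of 9 calls were left without the knockout stimulated library and 5 without the wild-type one. Aldoa (edgeR adjusted p = 0.175) and Tpi1 (0.108) were lost without the wild-type stimulated library, Pgk1 (0.115) without the knockout stimulated one, and Rpia (0.107 and 0.167) without either. Galk1 was lost without the knockout stimulated library (edgeR adjusted p = 0.0667) or the wild-type iTreg library (0.0763). Pgls was lost without either stimulated library (edgeR adjusted p = 0.173 and 0.341) or the knockout iTreg library (0.0852). Pfkfb3 was lost without the knockout stimulated library (edgeR adjusted p = 0.257), without the knockout iTreg library, where its log2 fold was -0.52 (0.0866), and in limma on FPKM (0.0529 and 0.0631). Of the other 41 pathway genes tested, 3 were higher and 8 lower, among them Hif1a (-1.65 ± 0.297, adjusted p = 0.00607) and Hk2 (-1.52 ± 0.292, adjusted p = 0.00843) on the lower side and Pgam2 (2.43 ± 0.549, adjusted p = 0.0174) and Pdk2 (1.43 ± 0.317, adjusted p = 0.0159) on the higher, in the same edgeR fit.

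Loss of MondoA gave no member a call shared by the 3 states. With cell state in the fit, 0 of 32 members passed an adjusted p of 0.05 in edgeR's quasi-likelihood test, where 22 of all 12848 genes did (0.171%, with 0.109% higher and 0.0623% lower in knockout). The lowest edgeR adjusted p of a member was 0.617. In the same test 1 of 32 members, H6pd, had an unadjusted p under 0.05 (0.047), as did 1019 of all 12848 genes. DESeq2 and limma also called 0, with 3 and 2 members at an unadjusted p under 0.05. Over all genes that count was 677 in DESeq2, and 960 and 985 in limma on log2(FPKM + 1) and log2(FPKM + 0.1). On the log2 scale the fitted knockout-over-wild-type fold was above 0 in 27 of 32 members, and in 6726 of all 12848 genes. The median was 0.22 over the members, against 0.018 over all genes tested. These fitted folds still hold the length trend of the iTreg pair described below. In this additive fit, with 2 residual degrees of freedom, a genotype difference that varies between states counts as error. It can therefore miss a difference confined to 1 state. A p that misses the threshold does not show that the enzymes were at the same level.

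Within each state there is 1 library per genotype, so the pairs below compare libraries and carry no test. Folds are log2 ratios of knockout to wild-type normalised CPM, and their 95% intervals cover counting error only. At rest 19 members were higher in knockout and 13 lower, with a median of 0.021 against 0.0074 over all genes, and 51% of 10324 genes with at least 50 counts in the higher library were higher. No member reached a 2-fold difference, where 1.41% of genes were at least 2-fold higher and 1.45% at least 2-fold lower. In stimulated cells 25 of the 31 members with enough counts were higher, against 54.8% of genes, with a median of 0.18 against 0.022, and again none reached 2-fold, where 0.542% of genes were higher and 0.523% lower by that much. In iTreg cells 26 of 32 were higher, against 54.2% of genes, with a median of 0.40 against 0.057. There 2 members were at least 2-fold higher, against 2.65% of genes, and 0 at least 2-fold lower, against 5.25%.

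The iTreg pair differed by transcript length across all genes. Its log2 fold changed by -0.338 for each doubling of length, whereas the slope was -0.0555 at rest and -0.0304 in stimulated cells. The fitted trend was 0.457 at 1024 bases and -0.139 at 4096 bases, and 22 of the 32 members were shorter than the median gene, at a median of 2465.5 against 2871.5 bases. After the trend was taken off, 25 members were still higher and 7 lower, against 50.2% of genes higher, and the median was 0.28 against 0.0030. No member then reached 2-fold, where 2.13% of genes were higher and 3.77% lower by that much. The cause of the trend was not tested.

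**Figure D4:**
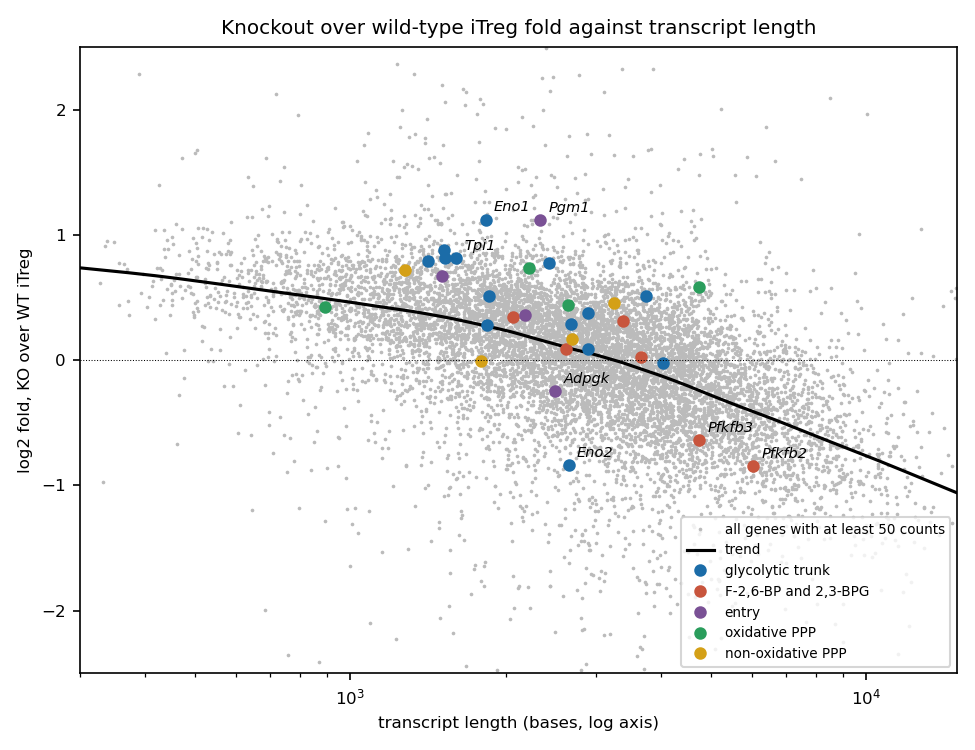
Log2 fold of knockout over wild-type iTreg cells for each gene (grey) and member (coloured points) against mean transcript length in bases on a log axis, with the fitted trend as a line. Short transcripts lie higher than long ones, and most members lie above the line.

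Several abundant trunk genes were well above wild type in the knockout iTreg library, and others were less so. Eno1 gave 1.12 (95% interval 1.09 to 1.16) and remained at 0.85 with the length trend removed. Pkm gave 0.77 (95% interval 0.74 to 0.81) and 0.63 with the trend removed, Aldoa 0.82 (95% interval 0.76 to 0.87) and 0.47, Tpi1 0.81 (95% interval 0.73 to 0.90) and 0.49, and Gapdh 0.79 (95% interval 0.77 to 0.82) and 0.42. Each of these genes was higher in the knockout than the wild-type iTreg library, with counts large enough that the interval was narrow. Summed FPKM of the trunk was 1.65 times as high in knockout as in wild-type iTreg cells, 1.17 times in stimulated cells and 1.04 times at rest. As a share of all FPKM, whose total was also higher in the knockout iTreg library, the iTreg ratio was 1.42. Without Gapdh, Eno1, Pkm and Aldoa the iTreg ratio of the trunk was 1.29 in summed FPKM and 1.10 as a share. Smaller differences were found for Pgam1 at 0.51 (95% interval 0.44 to 0.59), Gpi1 at 0.37 (95% interval 0.32 to 0.43) and Pgk1 at 0.28 (95% interval 0.21 to 0.35), which became 0.24, 0.31 and 0.0086 with the trend removed. For Pgk1 nearly all of the iTreg difference was thus within the length trend. Pfkp gave -0.024 (95% interval -0.10 to 0.054) and Pfkm 0.088 (95% interval -0.24 to 0.42), and the low Eno2 gave -0.84 (95% interval -1.45 to -0.31).

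Outside the trunk, Pgm1 was the other member at least 2-fold higher in knockout iTreg cells, with 1.12 (95% interval 0.89 to 1.36) and 0.96 with the trend removed. It was at 45.7 CPM (wild type) and 42.3 (knockout) at rest, 45.8 and 62.4 after stimulation, and 22.4 and 48.8 in iTreg cells. Pgm2, its paralog, was at 24.7 CPM (wild type) and 38.5 (knockout) at rest, 24.5 and 26.3 after stimulation, and 17.7 and 22.8 in iTreg cells. Its largest difference was at rest, at 0.64 (95% interval 0.41 to 0.88), and Pgm1 made up 63.3% and 50.6% of their joint FPKM there. Pgm2 was also higher in knockout iTreg cells, at 0.36 (95% interval 0.072 to 0.66) and 0.17 with the trend removed. Pgm1 was also higher in knockout stimulated cells, at 0.45 (95% interval 0.27 to 0.63). The intervals included 0 for Pgm1 at rest (-0.11, -0.30 to 0.080) and for Pgm2 in stimulated cells (0.10, -0.15 to 0.36). The 4 oxidative pentose phosphate genes were all higher in knockout iTreg cells. Pgd gave 0.73 (95% interval 0.62 to 0.85) and H6pd 0.58 (95% interval 0.38 to 0.79), and with the trend removed they were 0.55 and 0.83, but Pgls went from 0.43 to -0.066. Taldo1, the transaldolase of the non-oxidative arm, was at 108 CPM (wild type) and 119 (knockout) at rest, 88.9 and 93.2 after stimulation, and 70.2 and 116 in iTreg cells. Its iTreg pair gave 0.72 (95% interval 0.58 to 0.86) and 0.32 with the trend removed, while Rpia gave -0.0035 (95% interval -0.23 to 0.23) and -0.29 with the trend removed.

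Some members were lower in the knockout. Pfkfb2, a PFKFB form best known from heart, was at 17.3 CPM (wild type) and 15.1 (knockout) at rest, 13.6 and 12.9 after stimulation, and 13.1 and 7.18 in iTreg cells. Pfkfb2 gave -0.85 (95% interval -1.31 to -0.43) and Pfkfb3 -0.64 (95% interval -0.87 to -0.41) in iTreg cells, which became -0.44 and -0.39 with the trend removed. Adpgk was lower in all 3 pairs, with -0.70 (95% interval -0.84 to -0.56) at rest, -0.12 (95% interval -0.25 to 0.0097) in stimulated and -0.25 (95% interval -0.34 to -0.16) in iTreg cells. Pfkfb2 was the other member lower in all 3, so 2 of 31 members were, against 14.6% of 9394 genes with at least 50 counts in each pair.

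Another 13 members were higher in knockout in all 3 pairs, Pfkfb4 among them with fewer than 50 counts in stimulated cells, against 19.5% of those 9394 genes. They were Aldoa, Aldoc, Bpgm, G6pdx, Gapdh, H6pd, Minpp1, Pfkfb4, Pgls, Pgm2, Pkm, Taldo1 and Tpi1. With the length trend removed in each pair, Gapdh, Minpp1 and Pgls were no longer higher in all 3 and Pfkp was, which left 11 members, against 16% of genes. The counting interval lay above 0 in all 3 pairs for Aldoa, G6pdx and H6pd. G6pdx gave 0.27, 0.18 and 0.44, and H6pd gave 0.25, 0.24 and 0.58, at rest, stimulated and in iTreg cells. For Aldoa the 3 folds were 0.15, 0.17 and 0.82, so the iTreg pair stood apart in size. Intervals above 0 were found for 10 members at rest, 18 in stimulated and 20 in iTreg cells, against 23%, 19% and 38% of genes. Intervals below 0 were found for 5, 3 and 4 members, against 22.9%, 12.4% and 31.4%. Counting intervals narrow as counts rise, and members and genes were not matched for abundance. How far abundance accounts for these counts was not tested.

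**Figure D5:**
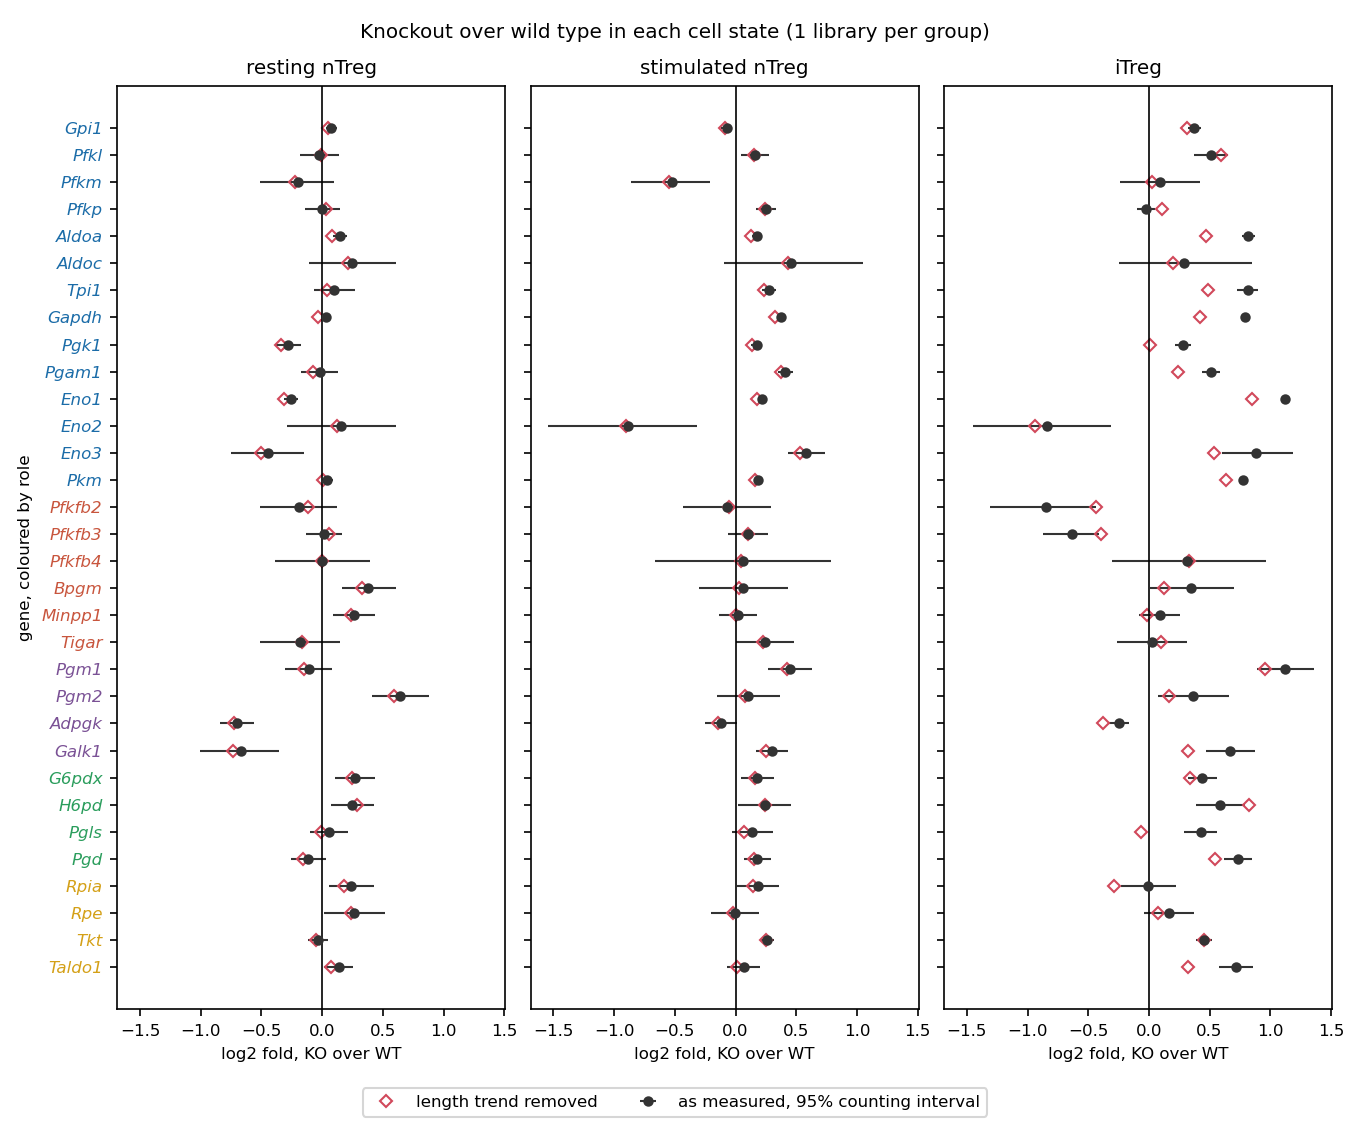
Log2 fold of knockout over wild-type for each member in resting, stimulated and iTreg cells (3 panels), as black points with 95% counting intervals, and as open red diamonds with the length trend removed. Most members lie to the right of 0 in the stimulated and iTreg panels, and at rest they lie on both sides.

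Markers of other cells also differed between the genotypes. The summed level of 4 CD8 T and NK cell markers was 33.9 CPM (wild type) and 23.5 (knockout) at rest. It was 47.2 and 55.0 in stimulated cells and 99.8 and 183 in iTreg cells. In iTreg cells the sum rested on Cd8a (56.4 and 109 CPM) and Cd8b1 (43.4 and 74.4 CPM). The NK cell markers were at or near 0 there, with Ncr1 at 0 and 0 and Klrb1c at 0 and 0.308 CPM. The summed level of 7 B cell markers was 386 and 591 at rest, 165 and 206 in stimulated cells and 219 and 328 in iTreg cells. The B cell sum was thus higher in knockout in every pair. The part of these cells in the enzyme differences was not tested. Marker levels here were not adjusted for the length trend of the iTreg pair either.

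Near-identical copies limit the Eno1 value at rest. Eno1b, a copy of Eno1, was listed with 202 counts in the knockout resting library and with 0 to 6 in the other 5, so reads may have been divided between them there. Eno1 and Eno1b together had 5440 (wild type) and 4959 (knockout) counts at rest, a log2 ratio of -0.20 (95% interval -0.25 to -0.14), where Eno1 alone gave -0.26 (95% interval -0.31 to -0.20). Gapdhs, a testis paralog of Gapdh and not a near-identical copy, had 7 to 11 counts, and the aldolase copies Aldoart1 and Aldoart2 had 0 or 1. Gapdh and other abundant trunk genes also have processed copies in the genome, and how the counting treated reads that match several copies is not given in the sources used here.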

How the data were processed

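RNA was isolated with Trizol and libraries were prepared with standard Illumina protocols, per the labels' protocols. Bowtie2, HISAT and build mm9 are named in the submitters' processing notes, without versions, and the quantifier is not given in the sources used here. The authors deposited, per the file headers, a length, an expected count and an FPKM value per NCBI gene, and 1 table per library. Of 17759 identifiers 17711 matched a symbol and 48 did not. The expected counts were rounded. A gene left out of 1 library's table was given a count of 0 there.

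edgeR 4.0.16 (TMM, filterByExpr with a minimum of 10 counts, glmQLFTest, Benjamini-Hochberg) was fitted to all 12848 genes with cell state and genotype as terms and 2 residual degrees of freedom. Normalised CPM use TMM library sizes. Pair folds used a prior count of 2, exact conditional 95% intervals and, for the length trend, a lowess with a fraction of 0.3 (statsmodels 0.14.6). FPKM was used for comparisons between genes. PCR reads without molecular identifiers are not independent molecules, so intervals are too narrow for biological variation. The 32 members and the other lists were chosen with earlier results of these data known. Genes outside the list were named by size of log2 fold among those called. The procedure was tested on simulated counts with a single dispersion, planted folds and no length trend. No simulated genotype difference varied between states, so that test cannot show how such differences affect the calls. Alternatives were DESeq2 1.42.0, limma 3.58.1 on log2(FPKM + 1) and log2(FPKM + 0.1), no filter, DESeq2 size factors, the length trend removed, no cell state term and each library left out in turn.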

Additional observations from a re-analysis of the deposited data

Results flagged for a closer look

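Opposite signs between states marked 5 members, each with counting intervals away from 0 on both sides. No share of all genes was computed for this pattern, so whether 5 is more than usual was not tested. Counting intervals are narrow at high counts, so small differences of abundant genes can meet this rule. Over all genes, intervals lay above 0 for 23% at rest, 19% in stimulated cells and 38% in iTreg cells. Intervals below 0 were found for 22.9%, 12.4% and 31.4% in the same order. The member values below are log2 folds of knockout over wild-type cells. With 1 library per group the difference between states was not tested. Eno1 was -0.26 at rest, 0.22 in stimulated cells and 1.12 in iTreg cells. Eno3 was -0.44, 0.58 and 0.88, and Galk1 was -0.67, 0.30 and 0.67, so all 3 were lower in knockout at rest and higher in the other states. Pgk1 was -0.28, 0.18 and 0.28. With the length trend removed the iTreg folds were 0.85 for Eno1, 0.54 for Eno3, 0.32 for Galk1, 0.0086 for Pgk1 and 0.31 for Gpi1, so the Pgk1 difference in iTreg cells was near 0. Gpi1 was 0.075, -0.073 and 0.37, the smallest of these differences and the one that was lower in stimulated cells. Reads listed under Eno1b, with 202 counts in the knockout resting library, bear on the Eno1 value at rest, which was -0.20 with both genes summed.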

How the results depend on the processing

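No paired analysis was possible because each group has 1 library and the labels carry no replicate numbers. The number of genes called for genotype moved from 22 to 67 with no filter on low counts, to 67 in DESeq2, to 11 and 12 in limma on log2(FPKM + 1) and log2(FPKM + 0.1), and to 0 without the cell state term (59 genes had an unadjusted p under 0.05), and it ranged from 34 to 305 with single libraries left out. Calls after stimulation ranged from 3794 to 7575 genes and those between iTreg and stimulated cells from 1298 to 3154 genes with single libraries left out, and members called in the latter from 4 to 10. The cause of these moves was not tested. Members called for genotype stayed at 0 in every alternative. For the members called after stimulation or between iTreg and stimulated cells, 317 results of the alternatives kept the call and 31 lost it. Of the members not called, 5 passed the threshold in some alternative, Eno2 and Minpp1 after stimulation and Pfkl, Pgm1 and Pkm between iTreg and stimulated cells, in 9 results in all. Of the pair folds, 349 kept within their interval and 36 did not, 24 of them with the length trend removed and 10 as FPKM ratios. No called member changed sign in any alternative fit. Pair folds were checked for reversal only where they reached 2-fold, and none of those reversed. Smaller pair folds could change sign, as Pgls did in iTreg cells, from 0.43 to -0.066 with the length trend removed. Depth limits the low members Eno2, Aldoc and Pfkfb4, whose pair intervals are wide.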
